A study of Mus musculus with 5 samples.

Results

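B cells were followed in single-cell RNA libraries of a normal mouse pancreas and of 4 pancreatic tumours from genetically engineered mice. A barcode was taken as a B cell when Cd79a, Cd79b and Ms4a1 together gave at least 3 UMIs (unique molecular identifiers, 1 per captured transcript) and at least 1 of them came from Cd79a or Ms4a1. The barcode also had to hold 0 UMIs of Cd3d, Cd3e, Cd3g and Epcam, under 10 UMIs per 10000 of C1qa, C1qb and C1qc, and under 30 per 10000 of 4 matrix genes (Col1a1, Col1a2, Col3a1 and Dcn). Because the members were chosen by these measured counts, the counts of those genes are a description and support nothing below. Of 10718 barcodes with at least 200 genes and at most 20% mitochondrial UMIs, 172 met the rule: 105 in normal pancreas, 1 in early KIC, 23 in late KIC, 18 in late KPfC and 25 in late KPC.

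Each group was 1 library of untreated mice. Mice of 60 days gave the normal pancreas, late KIC and late KPfC samples, mice of 40 days the early KIC tumour and mice of 6 months the late KPC tumour. The background was mixed C57BL/6 and FVB in all groups except late KPfC, which was C57BL/6. As these model names are generally used, all 4 tumour models use a Cre recombinase of the pancreatic epithelium, with loss of Cdkn2a in KIC, loss of floxed Trp53 in KPfC and a point-mutant Trp53 in KPC. B cells are therefore not the cells in which these alleles are meant to recombine. The labels give the genotype only as the model name. The series' design text names a mouse in the singular for each group, but outside the B cells the late KIC library held 333 barcodes with Xist and no Y-linked transcript and 263 with the reverse, and the normal library held 576 and 123, so both carried transcripts of 2 sexes. With 1 library per group no test between groups was possible, and the 95% intervals below cover counting error only, neither the spread between animals nor that between cells.

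B cells carry an antigen receptor made of immunoglobulin and the signalling chains Cd79a and Cd79b, and most of them show the surface protein Ms4a1 (CD20). On activation they present antigen on MHC class II and can become antibody-secreting plasma cells, which lose Ms4a1, most of the B cell transcription programme and MHC class II, and produce the joining chain Jchain and a large secretory apparatus. In pancreatic tumours B lineage cells are found in small numbers, in part in lymphoid aggregates at the tumour border.

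The 3 marker genes lie on chromosome 7 (Cd79a, chr7:24897381-24902197, plus strand), chromosome 11 (Cd79b, chr11:106311341-106314762, minus strand) and chromosome 19 (Ms4a1, chr19:11249675-11266241, minus strand) of GRCm38. Jchain lies at chr5:88519809-88527891 on the minus strand, and Vpreb3, which encodes a small immunoglobulin-like protein of early B cells, at chr10:75943057-75949657 on the plus strand. The 250 bases before the RefSeq start of Vpreb3 and of Jchain are shown because these genes are among the 10 most like the B cell markers by the ratio given below, and because several results turn on them. Capitals mark a match to the octamer ATGCAAAT, which is bound by the Oct factors that work with Pou2af1, or to the ETS motif CAGGAAGT, each searched on both strands. The sequences are from RefSeq on GRCm38.p6 and run 5′ to 3′ along the gene, the first at chr10:75948050-75948299 (plus strand) and the second at chr5:88527898-88528147 (minus strand).
Vpreb3: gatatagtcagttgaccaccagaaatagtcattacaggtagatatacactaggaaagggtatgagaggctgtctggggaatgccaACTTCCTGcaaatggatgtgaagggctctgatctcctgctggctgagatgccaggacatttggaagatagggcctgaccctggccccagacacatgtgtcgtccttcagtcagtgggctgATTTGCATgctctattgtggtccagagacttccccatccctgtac
Jchain: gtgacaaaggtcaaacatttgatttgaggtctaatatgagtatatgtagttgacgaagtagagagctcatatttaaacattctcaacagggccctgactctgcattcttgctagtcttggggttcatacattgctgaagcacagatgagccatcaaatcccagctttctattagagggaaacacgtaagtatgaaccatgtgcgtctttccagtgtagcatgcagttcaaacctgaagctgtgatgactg
The Vpreb3 window holds the octamer as ATTTGCAT 45 bases before the start and the ETS motif as ACTTCCTG 165 bases before it, and the 2 matches do not overlap. Of 32851 windows of this length, 1.60% held the octamer and 2.69% the ETS motif. The Jchain window held neither of these letters. A match is a description of the letters and not evidence of binding. Of 23 B lineage genes looked up, 18 had a window in the table.

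The library totals ranged from 3488871 UMIs (late KPC) to 26749820 (late KPfC). The B cell barcodes had median depths of 3369 UMIs in normal pancreas, 7953 in late KIC, 3549 in late KPfC and 1911 in late KPC, and the 1 of early KIC had 1532. Their sums were 440071, 213431, 70599, 54972 and 1532 UMIs in the order normal pancreas, late KIC, late KPfC, late KPC and early KIC. Pairs of libraries shared at most 17 barcode sequences, and no B cell barcode occurred in another library.

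The label was checked against a panel of 16 B cell genes that the rule did not use. All 105 barcodes of normal pancreas, the 1 of early KIC, all 23 of late KIC and all 18 of late KPfC held at least 1 UMI of the panel, with medians of 6, 4, 5 and 8 panel genes. In late KPC 20 of 25 did, with a median of 2 panel genes at a median of 1911 UMIs. T cell barcodes of the same libraries, which should lack these genes, held a panel UMI in 13 of 70 (18.6%, median 3475 UMIs) in normal pancreas, 13 of 32 (40.6%, 9574.5 UMIs) in late KIC, 5 of 28 (17.9%, 3564.5 UMIs) in late KPfC and 2 of 13 (15.4%, 1072 UMIs) in late KPC. As a level, the panel stood at 2179 CPM (UMIs per 1000000) in B cells of normal pancreas against 39.0 in T cell barcodes, and at 1310 against 125 in late KPC. Macrophage barcodes were higher than T cell barcodes, with a panel UMI in 24 of 38 (63.2%, 446 CPM, median 3699.5 UMIs) in normal pancreas, 126 of 176 (71.6%, 273 CPM, 7550.5 UMIs) in late KIC, 569 of 1392 (40.9%, 97.9 CPM, 8154.5 UMIs) in late KPfC and 43 of 286 (15.0%, 100.5 CPM, 2233 UMIs) in late KPC. The panel level was higher in the summed B cells than in both other classes in these 4 libraries. Those classes had been limited to barcodes without a UMI of Cd79a, Cd79b or Ms4a1. This limit favoured the B cells in advance, so the difference is a description only. Of the 5 late KPC barcodes without a panel UMI, 3 held 323, 305 and 61 Jchain UMIs and 2 held 0.

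Other cells' RNA was present in these barcodes and moves with the comparisons below. Acinar enzyme transcripts took 18.3% of all B cell UMIs of normal pancreas and at most 2.48% in any other library, and 29 of the 105 normal barcodes held at least 20% of them. Haemoglobin took 8.69% of B cell UMIs in normal pancreas and 14.7% in late KIC, where 6 of 23 barcodes held at least 20% and the highest 88.5%. Of the late KIC barcodes, 1 had 26576 UMIs, 692 of them from the keratins Krt8, Krt18 and Krt19, and that barcode alone made up 12.5% of the late KIC sum. Myeloid marker transcripts reached 269 UMIs in 1 barcode of late KIC, 740 in 1 of late KPfC, and 84 and 32 in 2 of late KPC. Without barcodes rich in such RNA (at least 20% haemoglobin or acinar, or at least 1% keratin or myeloid UMIs), 69, 1, 15, 17 and 23 B cells were left in normal pancreas, early KIC, late KIC, late KPfC and late KPC. For several lists the calls are given with and without the barcodes left out, and the part of other cells' RNA in the remaining results was not tested.

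B cells made up 4.40% of kept barcodes in normal pancreas (105 of 2386, exact Clopper-Pearson 95% interval 3.61 to 5.30). The share was 2.75% in late KIC (23 of 836, 1.75 to 4.10), 2.42% in late KPC (25 of 1034, 1.57 to 3.55), 0.614% in late KPfC (18 of 2933, 0.364 to 0.968) and 0.0283% in early KIC (1 of 3529, 0.000717 to 0.158). Normal pancreas was highest, its interval overlapped that of late KIC, and those of late KIC and late KPC also overlapped, while early KIC and late KPfC lay below the other 3. Relative to normal pancreas the share was 155-fold lower in early KIC (interval 27.3 to 6192), 7.17-fold lower in late KPfC (4.32 to 12.6), 1.82-fold lower in late KPC (1.17 to 2.94) and 1.60-fold lower in late KIC (1.01 to 2.63). These are shares of captured barcodes, in which macrophage barcodes took 1.59% of normal pancreas, 20.3% of early KIC and 47.5% of late KPfC, so a share can be lower without fewer B cells in the tissue.

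T cells, which are lymphocytes too, gave another denominator. They were counted as barcodes with at least 3 Cd3 UMIs and no UMI of Cd79a, Cd79b or Ms4a1. B cells were 65.8% of B and T cell barcodes together in late KPC (25 of 38 barcodes, interval 48.6 to 80.4), 60% in normal pancreas (52.3 to 67.3), 41.8% in late KIC (28.7 to 55.9), 39.1% in late KPfC (25.1 to 54.6) and 7.69% in early KIC (1 of 13, 0.195 to 36.0). The intervals of normal pancreas, late KIC, late KPfC and late KPC all overlapped each other, and that of early KIC overlapped those of late KIC and late KPfC. Overlap of single intervals does not settle whether shares differ. Ratios between libraries were not computed with this denominator, so the order of the libraries was not tested.

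The rule sets part of these numbers. The marker sum was exactly 3 in 11 normal, 3 late KIC, 1 late KPfC and 10 late KPC barcodes, and exactly 2, just outside, in 10, 7, 0 and 15. With at least 2 marker UMIs the late KPC share was 3.87%, and with at least 5 it was 0.870%. When every barcode was thinned to 1000 UMIs and shallower ones were left out, the shares were 1.80% in normal pancreas, 0.480% in late KPC, 0.359% in late KIC, 0.239% in late KPfC and 0% in early KIC. The exclusion of other lineages removed 21 barcodes in normal pancreas and 25 in late KIC, and without it late KIC had 5.74% (48 of 836), above the 5.28% of normal pancreas with overlapping intervals (4.26 to 7.54 and 4.42 to 6.26). Of the 25 barcodes removed in late KIC, 12 were Jchain-high, as described next.

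**Figure D1:**
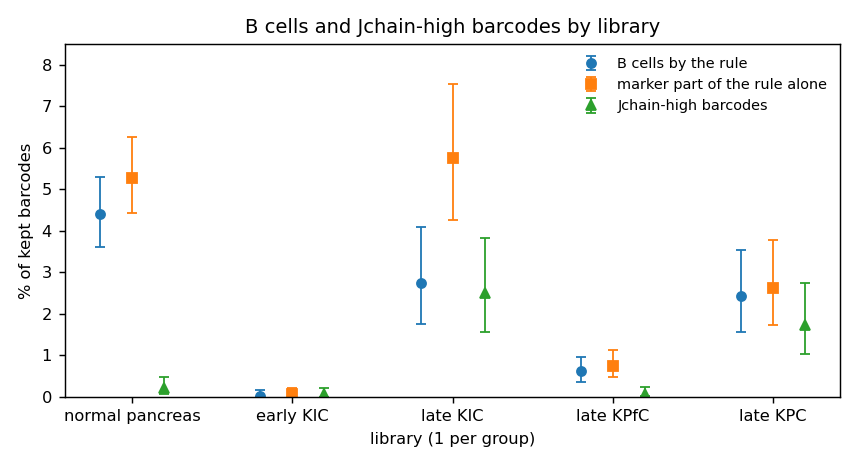
Share of kept barcodes in each library (y axis, %), with 1 library per group on the x axis: circles are B cells by the rule, squares the marker part of the rule without the exclusion of other lineages, triangles barcodes with at least 10 Jchain UMIs, and bars are exact 95% binomial intervals. B cells by the rule were at 4.40% in normal pancreas and 0.0283% in early KIC, and the squares lie furthest above the circles in late KIC (5.74% against 2.75%).

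The B cells fell into a large class without Jchain and a small class with very many Jchain UMIs. In normal pancreas 5 of 105 B cells held 133 to 883 Jchain UMIs and the other 100 held at most 1. In late KIC 6 of 23 held 69 to 871 and the others at most 2, and in late KPC 7 of 25 held 61 to 396 and the others at most 2. In late KPfC 1 of 18 held 202 Jchain UMIs, and the single B cell of early KIC held 0. The limit of at least 10 for a Jchain-high barcode was set after the values were seen, and no B cell lay near it.

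**Figure D2:**
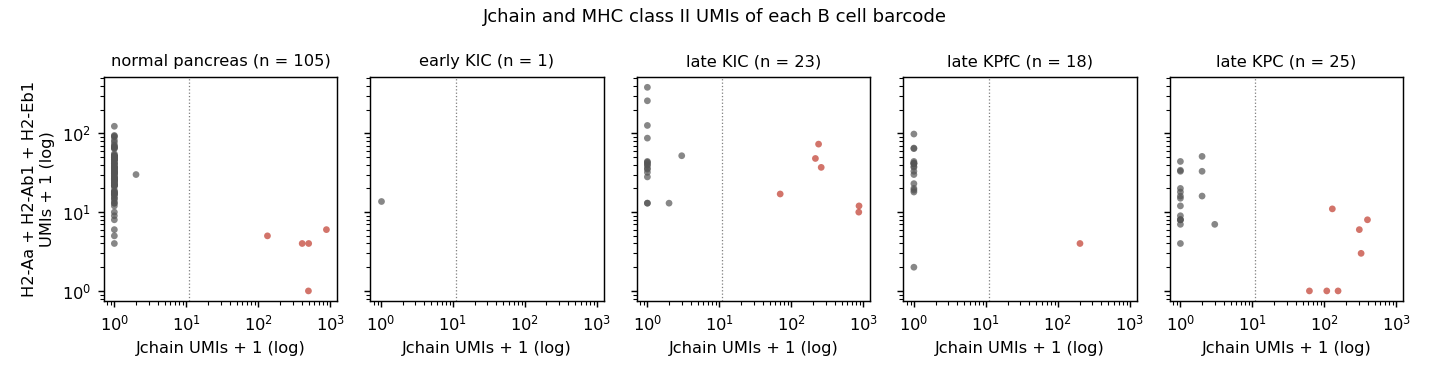
Each point is 1 B cell barcode, with Jchain UMIs plus 1 on the x axis and the sum of H2-Aa, H2-Ab1 and H2-Eb1 UMIs plus 1 on the y axis, both log scales, 1 panel per library. Red points are Jchain-high barcodes, to the right of the dotted line, and in normal pancreas all 5 of them had at most 5 MHC class II UMIs.

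Several plasma cell genes were higher in the Jchain-high barcodes. Mzb1, an endoplasmic reticulum cofactor of antibody secretion, was 12.8-fold higher in the Jchain-high than in the Jchain-low B cells of normal pancreas (interval 9.80 to 16.6), 40.6-fold in late KIC (29.3 to 57.6) and 8.997-fold in late KPC (5.28 to 16.2). Xbp1, the transcription factor of the secretory programme, was 26.4-fold (17.7 to 39.6), 25.9-fold (13.0 to 58.6) and 52.9-fold higher (8.73 to 2168) in the same order. Derl3, which serves the degradation of misfolded secretory proteins, had 10 UMIs in 5 Jchain-high and 7 in 100 Jchain-low barcodes of normal pancreas, 22 in 6 and 0 in 17 of late KIC, and 14 in 7 and 3 in 18 of late KPC. Sdc1, the plasma cell surface marker CD138, was sparse, with 6, 6 and 2 UMIs in the Jchain-high barcodes of these libraries. For Ell2, an elongation factor of antibody secretion, no difference was resolved. It had 0 UMIs in the Jchain-high and 8 in the Jchain-low barcodes of normal pancreas (interval of the ratio 0 to 10.5). Its ratio was 1.92 in late KIC (0.725 to 4.86) and 0.980 in late KPC (0.0887 to 6.84). Irf4, a factor of plasma cell formation, had 0 against 13 UMIs in normal pancreas (0 to 5.86). Its interval also held 1 in late KIC (ratio 2.77, 0.201 to 38.3) and in late KPC (0 to 10.4). Prdm1, which represses the B cell programme, had 3 against 2 UMIs in normal pancreas and was 26.8-fold higher (3.07 to 321). The Prdm1 ratio was 4.16 in late KIC (0.477 to 49.8), and both classes of late KPC had 0.

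Genes of the mature B cell programme went the other way, although Cd79a, which the rule used, did not. Ebf1, a transcription factor that B cells need and plasma cells switch off, was at 42.8 CPM in Jchain-high and 1020 in Jchain-low B cells of normal pancreas, 53.1 and 446 in late KIC, and 53.9 and 1346 in late KPC. H2-Aa, an MHC class II chain, was 17.9-fold lower in the Jchain-high barcodes of normal pancreas, 12.5-fold lower in those of late KPC and 3.15-fold lower in those of late KIC. Cd74, the class II invariant chain, was 2.09-fold, 1.96-fold and 1.74-fold lower in the same order. The sum of 3 MHC class II genes was 0 to 5 UMIs per Jchain-high barcode in normal pancreas and 0 to 10 in late KPC, but 9 to 72 in late KIC, whose Jchain-high barcodes were also deeper (median 10006.5 UMIs against 4614 and 2399). Jchain-high and Jchain-low barcodes were divided by their Jchain count, and the class sizes (1 to 7 barcodes) limit these ratios to a description of the libraries.

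Jchain-high barcodes outside the B cell rule were counted as well, because loss of Ms4a1 and a 0 for Epcam bear on them. Over all kept barcodes there were 5 in normal pancreas (0.210%, interval 0.0681 to 0.488), 2 in early KIC (0.0567%), 21 in late KIC (2.51%, 1.56 to 3.81), 2 in late KPfC (0.0682%) and 18 in late KPC (1.74%, 1.03 to 2.74). The share was 11.99-fold higher in late KIC than in normal pancreas (interval 4.40 to 40.7) and 8.31-fold higher in late KPC (2.97 to 28.6), whereas early KIC (ratio 0.270, interval 0.0258 to 1.65) and late KPfC (0.325, 0.0310 to 1.99) had intervals that held 1. Outside the B cells the limit was less clear, since 13 barcodes of late KIC and 6 of late KPC held 3 to 9 Jchain UMIs, against 0 in the other 3 libraries, and the lowest Jchain-high barcode of late KPC held 22. All 5 of normal pancreas met the B cell rule, against 6 of 21 in late KIC and 7 of 18 in late KPC.

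In late KIC the barcodes left out were mostly those with Epcam, an adhesion molecule of epithelial cells. Of the 15 outside the rule, 12 met its marker part, and 12 held an Epcam UMI (80%, interval 51.9 to 95.7), with at most 6 Epcam UMIs in a barcode and a median depth of 5642 UMIs. In the same library 17 of 176 macrophage barcodes (9.66%, median 7550.5 UMIs) and 1 of 30 Jchain-low barcodes with the B cell markers (3.33%, 8046 UMIs) held an Epcam UMI. The level was 327 CPM in the 15 barcodes outside the rule, 216 CPM in all 21 and 20.7 CPM in the macrophage barcodes. Keratin UMIs were few, with at most 4 in any late KIC Jchain-high barcode. In late KPC 3 of the 11 Jchain-high barcodes outside the rule held an Epcam UMI (27.3%, median 2509 UMIs). That was 3 of all 18 (16.7%, interval 3.58 to 41.4), against 3 of 286 macrophage barcodes (1.05%, 2233 UMIs). Both Jchain-high barcodes of early KIC held 1 Epcam UMI each, and in late KPfC 1 of 2 did. Whether Epcam came from these cells, from attached epithelial cells or from free RNA was not tested.

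Slpi, which encodes a secreted inhibitor of leukocyte elastase (chr2:164354070-164389095, minus strand), differed between the libraries in the Jchain-high barcodes. All 5 of normal pancreas held 0 Slpi UMIs. In late KPC the 7 that met the rule held 2443 Slpi UMIs in 6 barcodes, with 916 and 819 in the highest 2, and the 11 outside the rule held 1235 UMIs in 10 barcodes. The level was 131585 CPM in the 7 barcodes, 40570 CPM in the 11, 137 CPM in the Jchain-low B cells and 992 CPM in the remaining barcodes of that library, a name used from here on for barcodes that were neither B cells nor Jchain-high. Thus 13 of the 18 Jchain-high barcodes of late KPC held at least 10 Slpi UMIs, and their median over all 18 was 58.5.

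In late KIC the 6 Jchain-high barcodes of the rule held 164 Slpi UMIs in 4 of them (2900 CPM) and the 15 outside it 281 UMIs in 11 (2551 CPM), against 121 CPM in the Jchain-low B cells and 449 CPM in the remaining barcodes. Of the 21, 8 held at least 10. In early KIC the 2 barcodes held 73 and 1 Slpi UMIs, and in late KPfC they held 1 and 0, where the remaining barcodes stood at 863 CPM. Summed B cells of late KPC gave 44532 CPM of Slpi against 4.54 CPM in normal pancreas, and without the Jchain-high barcodes 5 UMIs remained in late KPC. The Slpi level of the remaining barcodes differed between libraries too (161 CPM in normal pancreas), and its part in these counts was not tested.

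**Figure D3:**
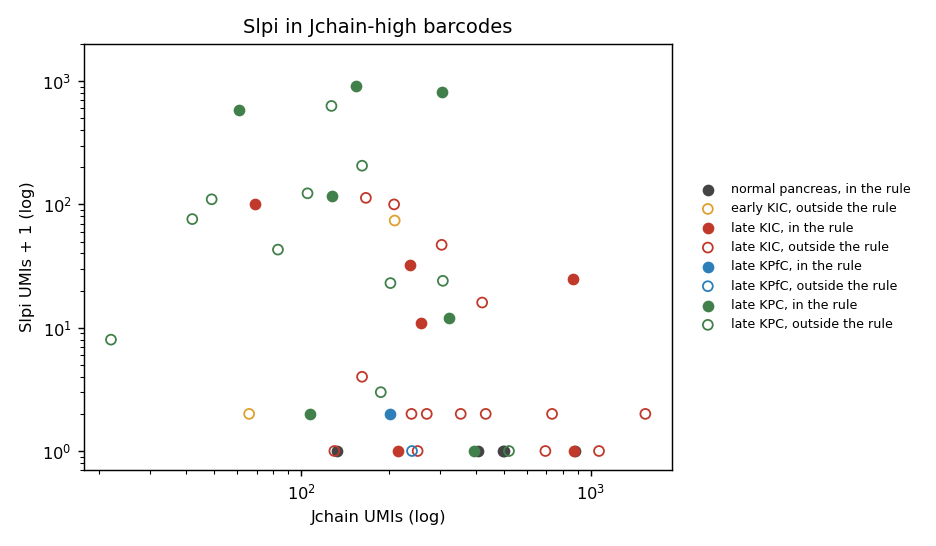
Each point is 1 Jchain-high barcode, with its Jchain UMIs on the x axis and Slpi UMIs plus 1 on the y axis, both log scales; colours are libraries, filled points met the B cell rule and open points did not. The 5 barcodes of normal pancreas lie at 0 Slpi UMIs, while 13 of 18 of late KPC and 8 of 21 of late KIC held at least 10.

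The B cell sums were compared between libraries with at least 20 B cells, gene by gene, over genes with at least 20 UMIs in both libraries together. A gene was called when its CPM ratio was at least 2-fold and the exact interval lay on that side. In late KIC against normal pancreas, 501 of 2945 genes were higher (17%) and 205 lower (6.96%). In late KPC against normal pancreas, 279 of 2235 were higher (12.5%) and 94 lower (4.21%), and in late KPC against late KIC, 84 of 1450 were higher (5.79%) and 136 lower (9.38%). The first 2 comparisons share the normal B cells and the last shares the tumour libraries. The median log2 ratio over all genes was 0.26 in both comparisons with normal pancreas and -0.08 in the third, and members are to be read against these shares and medians. Without barcodes rich in other cells' RNA this median was 0.07 over 2247 genes in late KIC and -0.23 over 1703 in late KPC, each against normal pancreas. Without the Jchain-high barcodes it was 0.16 over 2506 genes and 0.42 over 1976, and 0.11 over 994 in late KPC against late KIC. With acinar, haemoglobin, mitochondrial and immunoglobulin genes left out of the totals the calls were 309 higher and 311 lower in late KIC and 121 higher and 179 lower in late KPC against normal pancreas, and after centring on the median they were 336 and 310, and 181 and 132. Single barcodes carried part of the calls: in 107 of the 501 genes higher in late KIC (21.4%) and 47 of the 136 lower in late KPC than late KIC (34.6%), 1 late KIC barcode held at least 50% of the UMIs.

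Genes of the B cell receptor and its co-receptors were lower in late KIC B cells. Of 9 measured, 5 were lower and 1 higher, with a median log2 ratio of -1.74 against 0.26 for all genes. Siglecg, an inhibitory lectin, had 51 UMIs in 34 of 105 barcodes in normal pancreas, 4 in 4 of 23 in late KIC, 12 in 8 of 18 in late KPfC and 1 in 1 of 25 in late KPC, and was 6.18-fold lower in late KIC than in normal pancreas (interval 2.27 to 23.6). Cr2, the complement receptor CD21, had 43, 5, 1 and 1 UMIs in the same order and was 4.17-fold lower in late KIC (1.66 to 13.5). Cd72, a second inhibitory receptor, Fcmr, the receptor for IgM, and Fcrla, a cytoplasmic Fc receptor-like protein, were the other 3. The 1 gene higher was Fcgr2b (25 UMIs in 5 barcodes), which was no longer so without barcodes rich in other cells' RNA. In that setting 6 of 8 were lower (median -1.84), and without the Jchain-high barcodes 6 of 9 (median -1.52).

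In late KPC B cells 2 of the 9 were lower and none higher, with a median log2 ratio of -0.58. These 2 were Fcrla (1 UMI in late KPC, 74 in normal pancreas and 9.24-fold lower, 1.61 to 370.0) and Siglecg (6.37-fold lower, 1.09 to 257). Both rest on a single UMI in late KPC. Cr2 also had 1 UMI there, and its interval held 1. Without the Jchain-high barcodes 1 of 9 was lower, and without barcodes rich in other cells' RNA 4 of 7. Late KPfC, with 18 B cells, was not compared, and gave 14 Fcrla UMIs (198 CPM, normal pancreas 168) and 19 Fcmr UMIs (269 CPM, normal pancreas 173).

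Some signalling genes and transcription factors of B cells were lower in late KIC too. Their median log2 ratios were -0.57 and -0.98, against -1.74 for the receptor list and 0.26 for all genes. Without the Jchain-high barcodes the 2 medians were -0.37 and -1.13. Of 10 signalling genes 2 were lower and none higher: Blk, a Src family kinase, was 23.4 CPM against 116 in normal pancreas, and Bank1, an adaptor of the receptor, was 2.65-fold lower (1.45 to 5.22). Of 13 transcription factors 5 were lower and none higher. Ebf1 had 426 UMIs in normal pancreas and 73 in late KIC and was 2.83-fold lower (2.20 to 3.68), and Pax5, the factor that fixes B cell identity, had 46 and 6 UMIs and was 3.72-fold lower (1.58 to 10.7). Spib, Mef2c and Foxp1 were the other 3. Without the Jchain-high barcodes 6 of 12 were lower, and the log2 ratio of Ebf1 was -1.19. Without barcodes rich in other cells' RNA 7 of 10 were lower, with a list median of -1.33.

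Ebf1 differed directly between the tumours. It stood at 910 CPM there, 968 in normal pancreas, 1119 in late KPfC and 342 in late KIC, and was 2.66-fold higher in late KPC than in late KIC (1.82 to 3.86). Of 12 transcription factors measured in late KPC against normal pancreas, 1 was higher (Id3, an inhibitor of E proteins, 9 UMIs in 3 of 25 barcodes against 16 in 13 of 105) and none lower. Of 9 signalling genes 1 was lower, Bank1 (2 UMIs, 4.43-fold, interval 1.18 to 37.3). Pax5 had 2 UMIs (36.4 CPM, against 28.1 in late KIC and 105 in normal pancreas), and its interval against normal pancreas held 1. Bank1 and Pax5 had fewer than 20 UMIs over late KPC and late KIC together and were not compared between them. Of 5 transcription factors measured in late KPC against late KIC, Ebf1 was the 1 higher and none was lower. Without the Jchain-high barcodes 2 of 4 were higher. Of 4 signalling genes measured between the tumours none was called.

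Ccr7 and Cd83 were lower in late KPC, while most of the activation list was not called. Of the 3 follicular genes measured against normal pancreas 2 were lower, Ccr7 and Klf2. Ccr7, the receptor that leads lymphocytes to T cell zones (chr11:99144196-99155077, minus strand), had 228 UMIs in 77 of 105 barcodes in normal pancreas, 101 in 14 of 23 in late KIC, 23 in 11 of 18 in late KPfC, 1 in the 1 barcode of early KIC and 3 in 2 of 25 in late KPC. The remaining barcodes held Ccr7 at 53.7, 59.0, 44.3, 61.1 and 77.9 CPM in this order, against 518, 473, 326, 653 and 54.6 CPM in B cells, so among the 5 libraries B cells were not above the remaining barcodes in late KPC only. The Ccr7 level was 9.49-fold lower in late KPC than in normal pancreas (3.21 to 46.4) and 8.67-fold lower than in late KIC (2.88 to 42.8), and without Jchain-high barcodes the log2 ratios were -2.73 and -2.94. In late KIC 1 barcode held 33 of the 101 UMIs, and the ratio to normal pancreas (0.913) had an interval that held 1 (0.715 to 1.16).

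Cd83, a surface protein of activated B cells that stabilises MHC class II, had 189 UMIs in normal pancreas, 64 in late KIC, 20 in late KPfC and 2 in late KPC, 11.8-fold lower in late KPC than in normal pancreas (3.22 to 98.2). Cd86, a co-stimulatory ligand for T cells, had 64, 25, 7 and 1 UMIs and was 8.00-fold lower (1.38 to 321). Of 10 activation genes measured in late KPC against normal pancreas, 3 were lower (Cd83, Cd86 and Myc) and none higher. Myc had 0 UMIs in late KPC and 51 in normal pancreas. Without the Jchain-high barcodes 1 of 9 was lower, namely Cd83. Without barcodes rich in other cells' RNA 7 of 8 were lower, where the median log2 ratio over all 1703 genes was -0.23. Klf2, which keeps lymphocytes quiescent and recirculating, was lower in both tumours, 2.66-fold in late KIC (1.97 to 3.66) and 2.19-fold in late KPC (1.32 to 3.88).

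In late KIC the activation list held 5 of 14 genes that were higher and none lower: Ccl3 and Ccl4, which are chemokines, Bcl2a1b and Bcl2a1d, which are survival factors, and Nfkbiz, a nuclear regulator of NF-kB. Ccl3 had 22 UMIs in 9 of 23 barcodes, 14 of them in 1, against 1 in normal pancreas, and Ccl4 had 32 in 9, 16 of them in 1, against 14 in 12 of 105. Nfkbiz had 19 UMIs in 5 barcodes, 10 of them in 1, and was not measured without barcodes rich in other cells' RNA, while the other 4 were still higher there (4 of 13, with 2 lower).

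Cxcr4, the receptor for Cxcl12 that holds B cells and plasma cells in niches, was the reverse of Ccr7 in late KPC, with 38 UMIs in 15 of 25 barcodes (691 CPM) against 245 CPM in normal pancreas, 361 in late KIC and 70.8 in late KPfC. It was 2.82-fold higher in late KPC than in normal pancreas (1.89 to 4.11). Jchain-high barcodes were 7 of the 25 B cells of late KPC and 5 of the 105 of normal pancreas, and a Cxcr4 ratio without them is not given here. The remaining barcodes of late KPC held Cxcr4 at 106 CPM.

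Few MHC class II genes were called lower, and their number moved with the setting. H2-Aa was 2909 CPM in normal pancreas, 3013 in late KIC, 3810 in late KPfC and 2328 in late KPC. H2-Ab1 was 3284, 2881, 2875 and 2037 CPM, and Cd74 was 11573, 8012, 13386 and 6967 CPM in the same order. Of 11 class II genes measured, 2 were lower and none higher in late KIC (H2-Eb1 and H2-Ob), and 1 was lower in late KPC (H2-Oa, 1 UMI against 67). H2-Eb1 was 2.03-fold lower in late KIC than in normal pancreas (1.74 to 2.38) and 2.09-fold higher in late KPC than in late KIC (1.64 to 2.66). Without barcodes rich in other cells' RNA 3 of 11 were lower in late KIC (median log2 ratio -0.78, all genes 0.07). In that setting 5 of 11 were lower in late KPC (-1.03, all genes -0.23). After centring on the median of all genes 4 of 11 were lower in late KIC and 2 of 11 in late KPC. Of 8 and 7 class I genes in the 2 comparisons with normal pancreas, none was called.

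**Figure D4:**
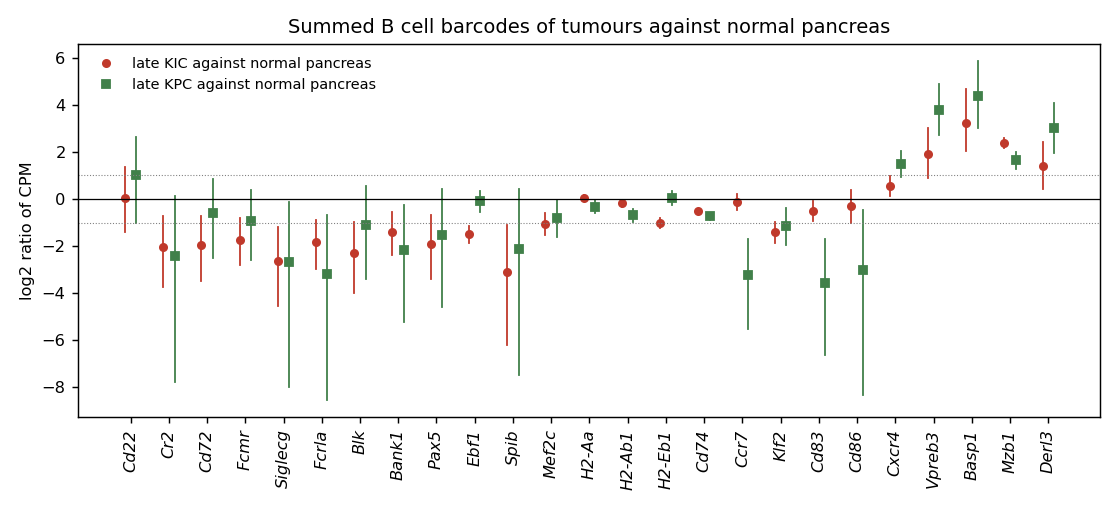
Log2 ratios of CPM in summed B cells (y axis) for a choice of list genes (x axis), late KIC (circles) and late KPC (squares) against normal pancreas, with exact 95% intervals for counting error; dotted lines mark 2-fold. Ccr7, Cd83 and Cd86 lie below the lower line in late KPC only, Ebf1 in late KIC only, and Vpreb3, Basp1, Mzb1 and Derl3 above the upper line in both.

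Vpreb3 was the gene of the early B cell list that was measured. It had 13 UMIs in 10 of 105 barcodes in normal pancreas (29.5 CPM), 24 in 11 of 23 in late KIC (112 CPM), 4 in 4 of 18 in late KPfC (56.7 CPM) and 22 in 10 of 25 in late KPC (400.2 CPM). The remaining barcodes held it at 0.376, 1.45, 0.155 and 1.41 CPM. Its level was 3.81-fold higher in late KIC (1.86 to 8.14) and 13.5-fold higher in late KPC (6.53 to 29.3) than in normal pancreas. In late KIC 18 of the 24 UMIs lay in the 6 Jchain-high barcodes (318 CPM against 38.2 in the others), with 9 in 1 barcode. In late KPC the Jchain-high and Jchain-low barcodes were alike in level (431 and 385 CPM, ratio 1.12, interval 0.407 to 2.86). Without Jchain-high barcodes Vpreb3 was 13.4-fold higher in late KPC than in normal pancreas (5.73 to 31.6) and 10.1-fold higher than in late KIC (3.63 to 31.9). The other early genes were at or near 0: Rag1, Rag2, Igll1, Dntt and Sox4 had 0 UMIs in every library, Vpreb1 had 1 in late KIC, and Cd93 had at most 4.

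Germinal centre genes were hardly seen. Bcl6, the germinal centre factor, had 1 in normal pancreas and 1 in late KIC. Mef2b and Mybl1 had 0 in all libraries. Basp1, the one gene of that list with enough UMIs, had 7 in normal pancreas, 32 in late KIC and 18 in late KPC, and was 9.43-fold (4.09 to 25.3) and 20.6-fold higher (8.20 to 58.3) than in normal pancreas. The remaining barcodes held it at 17.6, 222 and 359 CPM, against 15.9, 150 and 327 CPM in B cells, and in late KIC 1 barcode held 15 of the 32 UMIs. Basp1 therefore did not stand above the remaining barcodes of either tumour library.

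The plasma cell list was higher in both tumours. Of 6 genes measured in late KIC against normal pancreas 4 were higher (Jchain, Mzb1, Derl3 and Ell2), and of 5 in late KPC 4 were higher (Jchain, Mzb1, Derl3 and Xbp1), with medians of 1.26 and 1.65. Without barcodes rich in other cells' RNA 3 of 6 were higher in late KIC and 3 of 5 in late KPC, with medians of 1.19 and 1.12. Mzb1 stood at 550 CPM in normal pancreas, 2853 in late KIC, 623 in late KPfC and 1728 in late KPC. Without the Jchain-high barcodes the medians were -0.44 (3 genes) and -0.74 (2 genes), and Mzb1 had ratios of 0.735 (0.502 to 1.05) and 1.38 (0.782 to 2.29). Those barcodes were chosen by Jchain, a member of the list, and fewer genes were measured, so a drop was in part fixed in advance. Of the 3 genes measured in late KIC in this setting 1 was still higher, Ell2, at 82.9 CPM against 19.2 in normal pancreas (4.32-fold, 1.66 to 12.01).

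**Figure D5:**
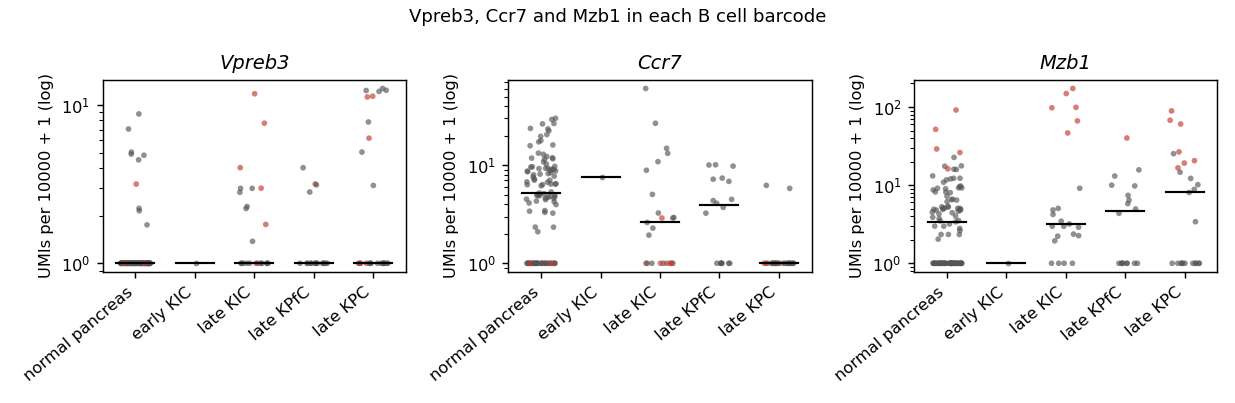
UMIs per 10000 plus 1 (log scale, y axis) of Vpreb3, Ccr7 and Mzb1 in each B cell barcode by library (x axis); red points are Jchain-high barcodes and black lines are medians over the barcodes. Ccr7 is present in 77 of 105 normal barcodes and 2 of 25 of late KPC, and the highest Mzb1 values are Jchain-high barcodes.

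Dividing cells were few. With 7 mitotic genes (Mki67, Top2a, Birc5, Cdk1, Ccnb1, Ccnb2 and Ube2c), at least 3 UMIs were found in 1 of 105 B cells of normal pancreas, 4 of 23 in late KIC, 0 of 18 in late KPfC and 2 of 25 in late KPC. Of the 4 in late KIC, 2 were Jchain-high, with 39 and 6 mitotic UMIs, 1 was the keratin-rich barcode and 1 held 25 mitotic UMIs at a depth of 25857. Depth differed between the libraries as given above.

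By the rule for named genes, the 12 with the highest lower bound and the 12 with the lowest upper bound were taken in each comparison. In late KIC the higher genes were Cxcl2, Il1b, S100a6, Krt19, Cd14, Cxcl1, Slpi, Ptgs2, Sprr1a, Il1a, Ccl17 and Krt18, mostly genes of myeloid or epithelial cells. Single barcodes held 446 of the 893 Cxcl2 UMIs, 848 of the 933 of S100a6, 184 of the 191 of Krt19, 77 of the 77 of Sprr1a and 57 of the 73 of Ccl17. In late KIC the ratio of B cells to all barcodes outside the rule was below 1 for Cxcl2 (0.776), S100a6 (0.339), Cd14 (0.907) and Krt18 (0.404). It was above 1 for Il1b (1.33), Krt19 (1.63), Cxcl1 (1.08), Slpi (1.83), Ptgs2 (1.47), Sprr1a (2.19), Il1a (1.08) and Ccl17 (2.51). The lower genes were Spink1, Tff2, Ins2, Pdia2, Amy2a2, Amy2a3, Amy1, Amy2a4, Nupr1, Cuzd1, Ins1 and Txnip. The first 11 include products of acinar and islet cells, and all 11 were lower in normal B cells than in the other normal barcodes.

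In late KPC against normal pancreas the higher genes were Slpi, Chil3, Cxcl3, Mfge8, Cxcl2, Lyz2, Vps8, Thbs1, Gm10800, Ccl6, Fn1 and Cxcl1. A single barcode held 106 of the 109 Chil3 UMIs, all 59 of Cxcl3, all 30 of Mfge8 and 52 of the 64 of Lyz2. The lower genes were Spink1, Tff2, Ins2, Rpl29, Pdia2, Amy2a2, Amy2a3, Gm10073, Cd83, Ccr7, Amy1 and Nupr1. Rpl29 had 335 UMIs in 92 of 105 normal barcodes and 2 in 2 of 25, and Gm10073 271 and 4. Both belong to ribosomal protein families with near-identical copies, so their counts are uncertain. In late KPC against late KIC the higher genes were Slpi, Vps8, Gm10800, Gm26870, Chil3, Mfge8, Malat1, Xist, Kcnq1ot1, Cxcl3, Rps27rt and Apoe. The lower genes were Krt18, Gm10260, Krt8, Krt19, Rpl29, Hist1h2ap, S100a6, Vim, Ptgs2, Sprr1a, Ccl17 and Anxa2. In late KIC 1 barcode held 276 of the 280 Krt8 and 371 of the 424 Vim UMIs.

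Genes most like the markers were sought by the lowest ratio of B cells to all barcodes outside the rule over the 3 libraries with at least 20 B cells. The first 9 were Blk, Gm43291, Vpreb3, Eaf2, Mzb1, Pou2af1 (the co-activator of the octamer factors), Fcrl1, Cd22 and Jchain. Their lowest ratios ran from 42.0 for Blk to 20.4 for Jchain, beside 45.5 for Cd79a, 46.0 for Ms4a1 and 32.0 for Cd79b, which the rule used. Jchain reached 1331 in normal pancreas but 20.4 in late KIC and 40.7 in late KPC, where other barcodes outside the rule carried it too.

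The B cells of the late KIC library carried transcripts of both sexes in separate barcodes. Xist without a Y-linked transcript was found in 11 of the 23, a Y-linked transcript (Ddx3y, Eif2s3y, Kdm5d or Uty) without Xist in 9, both in 0 and neither in 3. Among its 6 Jchain-high barcodes 2 held Xist and 3 a Y-linked transcript. In normal pancreas 82 of 105 held Xist alone, 0 a Y-linked transcript alone and 1 both, although 123 other barcodes of that library held a Y-linked transcript alone and 576 Xist alone. In late KPfC 10 of 18 held a Y-linked transcript and 0 Xist, and in late KPC 23 of 25 held Xist and 0 a Y-linked transcript. Late KPC and normal B cells were thus alike in holding 0 barcodes with a Y-linked transcript alone, and age and model cannot be told apart between these libraries. Against late KIC, whose B cells held both patterns, sex also differed in part.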

How the data were processed

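The authors deposited UMI counts per gene and barcode for 5 libraries of the 10x Genomics 3′ v2 chemistry, per the labels' protocols, made with Cell Ranger 2.1.1 on GRCm38, per the submitters' processing notes; no source used here gives the annotation release or use of strand. Counts over 27998 genes were read in Python 3.11.15 with numpy 2.4.6, scipy 1.17.1 and pandas 2.3.3, and figures drawn with matplotlib 3.10.9. Positions come from the GENCODE annotation of that build. Doublets were not removed and no doublet caller was run. The B cell members and the 35 gene lists were chosen with earlier results of these data known, and the Jchain limit after its values were seen. UMIs of B cells were summed per library. Shares have Clopper-Pearson intervals at 95%, and ratios have exact binomial intervals given the sum of the counts; a count of 0 was set to 3 counts per library sum. Named genes were the 12 with the highest lower bound and the 12 with the lowest upper bound per comparison, leaving out a list of acinar secretory genes, haemoglobins, mitochondrial genes and immunoglobulin variable segments, beside the list members and the 10 genes most like the markers. The interval method was tested on simulated data. Immunoglobulin constant genes, and with them antibody class and light chain, were not analysed here. T cell barcodes held at least 3 Cd3 UMIs, and macrophage barcodes at least 10 UMIs of C1qa, C1qb and C1qc per 10000. Both classes were limited to barcodes without a UMI of Cd79a, Cd79b or Ms4a1. The alternatives were 15 planned, 1 of them on immunoglobulin class and not run, and 4 added after seeing the data. Some genes of the lists are not reported here.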

Additional observations from a re-analysis of the deposited data

How the results depend on the processing

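Shares of B cells moved with depth and the rule. Thinned to 1000 UMIs they were 1.80% in normal pancreas, 0% in early KIC, 0.359% in late KIC, 0.239% in late KPfC and 0.480% in late KPC. With at least 5 marker UMIs normal pancreas had 3.31% and late KPC 0.870%, and with at least 2 late KPC had 3.87%. With at least 500 genes and at most 10% mitochondrial UMIs normal pancreas had 7.98%, and without exclusion late KIC had 5.74%. The 20 other alternative shares moved less than their intervals. For late KIC against normal pancreas, 501 higher genes became 309 with other totals, 53 thinned, 238 with at least 50 UMIs, 104 without barcodes with other-lineage markers and 268 without barcodes rich in other cells' RNA. The 205 lower became 311, 49, 110 and 69 under the first 4 of these and 310 after centring. For late KPC against normal pancreas, 279 higher became 121 with other totals, 59 thinned, 181 centred, 114 with at least 50 UMIs, 170 without other-lineage markers and 100 without other cells' RNA. The 94 lower became 179 with other totals, 59 thinned, 61 without other-lineage markers and 60 without Jchain-high barcodes. They became 151 (of 1703 genes) without other cells' RNA and 167 as a mean over cells. For late KPC against late KIC, 84 higher became 22 thinned, 24 with at least 50 UMIs, 45 without other-lineage markers and 38 without other cells' RNA. The 136 lower became 25 thinned, 83 with at least 50 UMIs, 26 without other-lineage markers and 83 without Jchain-high barcodes. Thinning, a higher minimum and left-out barcodes also test fewer genes.

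Some directions turned. Without Jchain-high barcodes the plasma cell median was -0.44 in late KIC and -0.74 in late KPC, over fewer genes. Jchain, by which those barcodes were chosen, is in that list, so a drop was in part fixed in advance. The cell cycle median in late KIC was -1.08 when thinned. The cytokine list in late KPC against late KIC was at 0.54 thinned and 0.31 without other-lineage markers. Txnip in late KIC was at 0.0079 without other-lineage markers. Without barcodes rich in other cells' RNA, Chil3 and Cxcl3 in late KPC against late KIC were at -1.48 and -2.90. The cause was not tested. The alternative on immunoglobulin class was not run. No paired analysis was possible because each group has 1 library.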

Other observations

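Glycolysis genes were higher in late KIC B cells. Of 7 measured, 6 were higher than in normal pancreas and none lower (Pgk1, Eno1, Tpi1, Gapdh, Ldha and Pkm), with a median log2 ratio of 1.75. Ldha, which makes lactate, had 125 UMIs in late KIC, 44 of them in 1 barcode, and 94 in normal pancreas. Without barcodes rich in other cells' RNA 2 of 6 were higher. In late KPC none of 5 was called against normal pancreas, and 4 of 6 were lower than in late KIC.

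Of 9 genes of the BAFF and survival list measured in late KIC against normal pancreas, 2 were higher (Mcl1 and Nfkb1). In that comparison 1 was lower (Tnfrsf13c, the receptor for the survival factor BAFF), and of 9 in late KPC 3 were higher (Mcl1, Nfkb1 and Bcl2l11). Without barcodes rich in other cells' RNA none of 9 was called in either direction in late KIC, and 2 of 6 were higher in late KPC. Tnfsf13b, which encodes BAFF, had 0 UMIs in the B cells of all 5 libraries. Cxcl13, a chemokine that draws B cells into follicles, stood outside the rule at 45.4 CPM in normal pancreas, 11.4 in early KIC, 63.7 in late KIC, 324 in late KPfC and 151 in late KPC. Of the 2 interferon response genes measured in late KIC both were higher than in normal pancreas, but 1 barcode held 20 of 23 Isg15 and 55 of 107 Ifi27l2a UMIs.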
